A study of Mus musculus with 2 samples.

Results

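Endothelial cells that carried transcripts of the arterial genes Sox17, Gja4 or Gja5 were examined in single-cell RNA libraries of mouse alveolar bone, the bone that holds the teeth. A cell barcode was selected when it held at least 1000 unique molecular identifiers (UMIs, 1 per captured transcript) over named genes, with at most 20% of them mitochondrial. It also needed at least 3 UMIs over Cdh5, Pecam1, Emcn and Egfl7, at least 1 of Cdh5, at least 1 of Sox17, Gja4 or Gja5 (an arterial UMI below), and none of Stab2 or Itga2b. The rule found 95 barcodes in library 1 and 177 in library 2, 272 of 21809 barcodes that passed the depth and mitochondrial limits. They made up 1.01% of such barcodes in library 1 (exact Clopper-Pearson 95% interval 0.821% to 1.24%) and 1.42% in library 2 (1.22% to 1.65%). They were compared with the 197 and 399 other endothelial cells, which passed the same endothelial limits, had no Stab2 or Itga2b UMI and held no arterial UMI.

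The animals were 12 healthy C57BL/6J mice aged 6 to 8 weeks, and a nickel-titanium spring joined the upper right first molar to the incisors in all of them. In the force group the spring pulled the molar forward at 25 g, and in the control group it was attached without force. On day 7 the molar was taken out, bone within 1 mm of the socket was collected, and tissue of 6 mice per group was pooled, digested and depleted of red cells. The labels name the 2 libraries as alveolar bone 1 and 2 and do not say which holds the force group, so both stay without a group, no force effect was computed, and each library is given on its own. Where a pair of values is given for a cell group, library 1 comes before library 2. Each library is a single pool, so no test between animals is possible: intervals cover counting error alone, and a gene is called when it differs at least 2-fold in the same direction in both libraries.

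Arteries, capillaries, sinusoids and veins are lined by endothelial cells that share junction and receptor genes and differ in a smaller set. Arterial identity is known to depend on VEGF and Notch signalling, with the ligand Dll4 and the target genes Hey1 and Nrarp, and on the transcription factor Sox17. The connexins encoded by Gja4 and Gja5 form gap junctions of arterial endothelium, while the adhesion molecules encoded by Selp and Sele and the chemokine-binding receptor Ackr1 mark venules through which leukocytes leave the blood. In bone, arterioles feed a bed of capillaries and sinusoids around the marrow.

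The selected cells had a median of 8230 UMIs in library 1 and 8192 in library 2, against 4999 and 4443 in the other endothelial cells. Sox17 carried the selection: 91 of 95 and 169 of 177 cells held it, whereas Gja4 was found in 13 and 26 cells and Gja5 in 8 and 8. Sox17 was the only arterial gene detected in 80 and 149 cells (Sox17-only cells), and 15 and 28 cells held Gja4 or Gja5. All 3 genes were found together in 5 and 4 cells. A single arterial UMI placed 32 and 82 cells inside the threshold, 42 and 60 cells held 3 or more, and the highest counts were 18 and 37. Of barcodes that met every other condition, 4 and 6 stayed outside for want of a Cdh5 UMI, 9 and 17 because of Itga2b, and 2 and 0 because of Stab2. Of 75 barcode sequences that passed the limits in both libraries, 0 were selected in both. The 5% of barcodes with the highest doublet scores included 7 of 95 and 12 of 177 selected cells, against 22 of 197 and 25 of 399 other endothelial cells.

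The endothelial label held for genes outside the rule. All 14 endothelial markers that the rule did not use (among them Kdr, Tie1, Esam and Erg) had UMIs, with summed levels of 5589 and 5434 CPM (UMIs of a gene or list per 1000000 UMIs of the cell group) in the selected cells, against 4577 and 4106 CPM in the other endothelial cells. At least 3 of the 14 were present in 94 of 95 and 177 of 177 selected cells, against 178 of 197 and 358 of 399 of the others. In neutrophil barcodes, which should lack them, the share was 1.52% and 2.55% at median depths of 3295 and 4448 UMIs. The arterial label held for fewer cells: Selp was found in 62 of 95 and 130 of 177 selected cells, and Sema3g, an arterial gene that the rule did not use, in 17 and 23. Against barcodes outside the endothelial limits, where 9.56% of 17203 genes were called higher and 13.2% lower, 18 of 26 arterial-list genes and 11 of 12 venous-list genes were higher. The cells are therefore named by the genes that selected them.

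The share of endothelial barcodes with an arterial UMI was highest among the deepest barcodes. It was 16.7% and 22.7% in the 12 and 44 barcodes with under 2000 UMIs. From 2000 to under 5000 UMIs it was 21.9% and 17.5%, from 5000 to under 10000 it was 33.7% and 29.7%, and at 10000 or more UMIs it was 48.8% and 58.0%. After every barcode was thinned to 1000 UMIs, the 4 ranges from the shallowest to the deepest gave 16.7%, 12.3%, 16.3% and 17.5% in library 1 and 18.2%, 6.99%, 5.23% and 16.0% in library 2, with no steady rise. A cell without an arterial UMI is therefore not shown to lack the transcript.

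**Figure D1:**
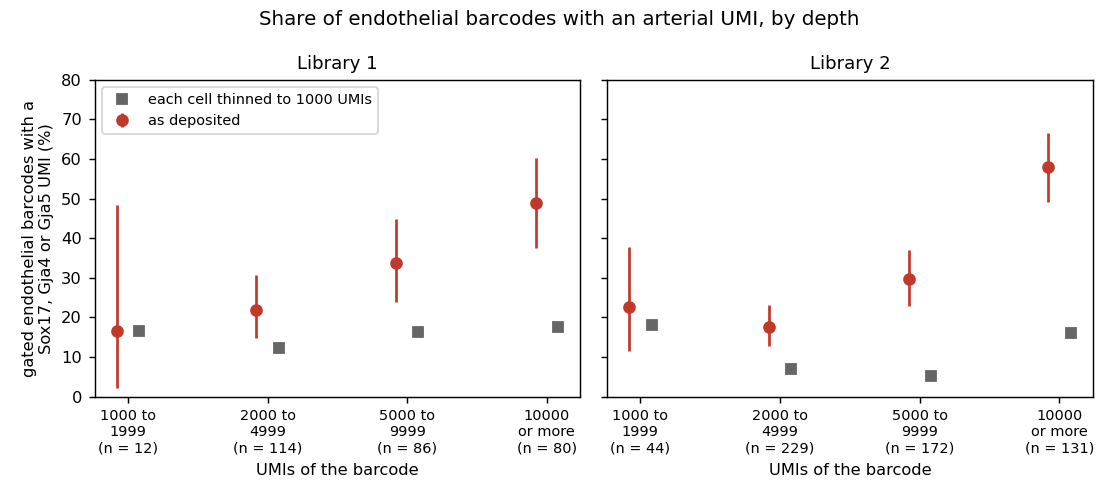
Share of gated endothelial barcodes with a Sox17, Gja4 or Gja5 UMI (%, vertical axis) by UMIs of the barcode (horizontal axis), one panel per library. Circles with exact 95% intervals are the deposited counts, which reach 48.8% and 58.0% in the deepest range, and squares are the same barcodes thinned to 1000 UMIs, where that range gives 17.5% and 16.0%.

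Set against the other endothelial cells, the selected cells had higher levels of a small number of genes, among them 6 of the arterial list, 3 of the Notch list and 3 of the matrix list. Dll4 and Hey1 are on both the arterial and the Notch list, and Fbln5 is on both the arterial and the matrix list. Of 8704 genes measured (at least 20 UMIs over both cell groups in each library), 54 were called higher, which is 0.62%, and 332 lower, which is 3.81%; the median log2 ratio over all of them was -0.11 and -0.12. Of the 23 measured genes of the arterial list, 6 were called higher and 0 lower: Sema3g, Bmx, Hey1, Dll4, Fbln5 and Stmn2. The median log2 ratio of that list was 0.71 and 0.80. Other endothelial lists also lay above the median over all genes. The median was 0.33 and 0.39 for the 14 endothelial markers outside the rule and 0.45 and 0.43 for endothelial transcription factors. For the venous list it was 0.40 and 0.18, and for the sinusoidal list 0.18 and -0.004. For the arterial list it was 0.52 and 0.40, with 4 of 23 called, without barcodes that held a UMI of the leukocyte gene Ptprc. After the same cells were thinned to 1000 UMIs, only 11 genes of the arterial list were measured. Their median was 0.24 and 0.14, with 0 of 11 called, and it does not cover the same genes as the medians over 23. With the mean of per-cell CPM, which weighs every cell equally, the median over the 23 genes was 0.65 and 0.71. Then 4 of 23 were called, without Hey1 and Dll4.

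Sema3g, which encodes a secreted semaphorin of arterial endothelium, had 98.4 and 59.4 CPM in the selected cells, against 8.11 and 3.26 CPM in the other endothelial cells. Its log2 ratio was 3.60 (95% interval 2.70 to 4.65) and 4.19 (3.16 to 5.44). The intervals of the levels did not overlap in either library. After thinning to 1000 UMIs, Sema3g was present in 7.37% (3.01% to 14.6%) and 5.08% (2.35% to 9.43%) of the selected cells, against 1.02% and 0 of the others (exact upper limit of the 0, 0.920%), and the share in neutrophil barcodes was 0.041% and 0 of 2624. Unthinned, the shares were 17.9% and 13.0%, against 5.08% and 1.00%, with 0.328% and 0.343% of neutrophil barcodes. Bmx, a cytoplasmic tyrosine kinase of arterial endothelium and myeloid cells, had 23.9 and 37.8 CPM in the selected cells, against 5.16 and 4.48 CPM in the other endothelial cells; neutrophil barcodes held it at 46.6 and 54.4 CPM. Fbln5, which encodes an elastic-fibre protein, had 148 and 117 CPM in the selected cells, against 35.4 and 18.3 CPM in the other endothelial cells. Stmn2, known mainly as a microtubule regulator of neurons, had 57.6 and 109 CPM in the selected cells, against 12.5 and 10.99 CPM in the other endothelial cells.

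In the Notch list, 3 of 16 measured genes were called higher and 0 lower. Dll4, the Notch ligand, had 118 and 90.2 CPM in the selected cells, against 56.8 and 34.2 CPM in the other endothelial cells. Hey1, a transcriptional repressor induced by Notch, had 40.8 and 22.7 CPM in the selected cells, against 11.1 and 9.77 CPM in the other endothelial cells. Nrarp, a Notch target that dampens the pathway, had 68.6 and 36.7 CPM in the selected cells, against 13.3 and 8.55 CPM in the other endothelial cells, with log2 ratios of 2.37 (95% interval 1.60 to 3.21) and 2.10 (1.38 to 2.88). The receptor Notch1 did not reach the 2-fold mark, at 276 and 267 CPM in the selected cells, against 219 and 223 CPM in the other endothelial cells. Other lists gave 1 to 3 calls each. Cldn5, the main claudin of endothelial tight junctions, was 1 of 15 junction genes, at 341 and 257 CPM in the selected cells, against 125 and 66.3 CPM in the other endothelial cells. Sox18, a close relative of Sox17, was 1 of 17 transcription factors, at 199 and 144 CPM in the selected cells, against 77.4 and 65.9 CPM in the other endothelial cells, and Id1, a target of BMP signalling, was 1 of 16 genes of the TGF-beta and BMP list, at 173 and 167 CPM in the selected cells, against 83.3 and 55.8 CPM in the other endothelial cells. Mgp, an inhibitor of calcification, and Fbln2, a fibulin, joined Fbln5 as 3 of 22 matrix genes; Mgp had 1525 and 1958 CPM in the selected cells, against 454 and 967 CPM in the other endothelial cells. Igfbp3 and Fabp4, a growth-factor binding protein and a fatty-acid binding protein, were the calls of the type H and capillary lists. No call in either direction was made in the lists for VEGF and angiopoietin, shear stress, leukocyte adhesion, vasoactive factors, chemokines, interferon and MHC, stress genes or lymphatic endothelium, nor in the venous (12 measured) and sinusoidal (9 measured) lists. Klf2, the flow-induced transcription factor, had 537 and 604 CPM in the selected cells, against 388 and 337 CPM in the other endothelial cells, below the 2-fold mark.

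Outside the lists, the leading genes called higher were Egfl8, Sdcbp2, Ephx1, Col8a1, Tmem255b, Nwd1, Eml1, Zfp979, Lrrc70, Gprc5a, Ssu2 and Pcsk5. Sdcbp2, which encodes a PDZ-domain protein, had 42.7 and 25.9 CPM in the selected cells, against 6.63 and 3.66 CPM in the other endothelial cells. Pcsk5, a proprotein convertase, had 32.8 and 24.3 CPM in the selected cells, against 8.85 and 9.77 CPM in the other endothelial cells. Egfl8 was held by 11 and 14 selected cells and by 3 and 1 of the others.

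Several leading genes among those called lower are known from blood cells. The leading 12 were Gm21762, Ly6d, Gpr171, Siglech, Cd7, Ccr9, Gria3, Flt3, Blnk, Cox6a2, Spib and Tmem229b; Ly6d, Siglech, Cd7, Ccr9, Flt3, Blnk and Spib are known from lymphoid or dendritic cells. Siglech, a lectin of plasmacytoid dendritic cells, was present in 0 of 95 and 2 of 177 selected cells, against 8 of 197 and 26 of 399 of the others. Ptprc was present in 11 of 95 and 21 of 177 selected cells, against 49 of 197 and 56 of 399 of the others; the exact 95% intervals of the shares overlapped slightly in library 1 (5.92% to 19.8%, against 19.0% to 31.5%) and almost wholly in library 2 (7.496% to 17.6%, against 10.8% to 17.8%). The B-lineage marker list stood at 121 and 151 CPM in the selected cells, against 269.8 and 279 CPM, with all 6 markers detected in both groups. The monocyte list stood at 365 and 513 CPM, against 727 and 412 CPM, with Adgre1 at 0 in the selected cells of library 1 and C1qb at 0 in those of library 2. The cell-cycle genes Top2a and Mcm5 were also called lower, 2 of 16 measured; Top2a had 58.6 and 42.7 CPM in the selected cells, against 166 and 138 CPM in the other endothelial cells.

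Without the barcodes that held a Ptprc UMI, a comparison added after these values were seen, 24 genes were called higher and 9 lower of 7264 measured. Of these, 17 and 5 were among the 54 and 332. Sema3g, Bmx, Fbln5 and Stmn2 kept their calls, with log2 ratios in the library nearer to no change of 3.28 for Sema3g, 2.77 for Bmx, 1.63 for Fbln5 and 1.75 for Stmn2. On the same measure Dll4 came to 0.75, Hey1 to 0.60 and Mgp to 0.81, under the 2-fold mark, while Nrarp stayed above it at 1.72. Top2a, called lower before, came to 1.06 in the library with the higher ratio, a change of sign in that library. Thinned to 1000 UMIs, the comparison of all selected cells gave 2 genes called higher and 26 lower of 2711 measured. Among the 54 and 332 were 2 and 9 of them.

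**Figure D2:**
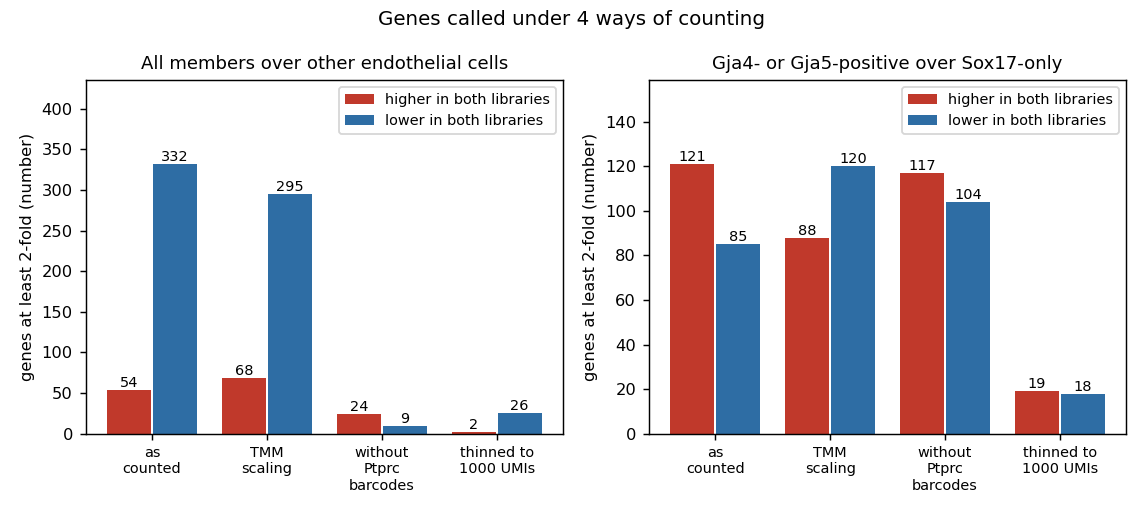
Number of genes at least 2-fold higher (red) or lower (blue) in both libraries, counted as described and under 3 other settings; the left panel is the selected cells over the other endothelial cells, the right panel the Gja4- or Gja5-positive over the Sox17-only cells. In the left panel the lower calls number 332 as counted and 9 without barcodes that hold a Ptprc UMI, and in the right panel they number 85 and 104.

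The selected cells were not uniform: levels of arterial-list genes were higher in the minority with Gja4 or Gja5. Those 15 and 28 cells were set against the 80 and 149 Sox17-only cells, a comparison added after the data were seen because few cells held Gja5. Median depth was 10270 and 12129 UMIs in the Gja4- or Gja5-positive cells, against 7566 and 8032. Of 5905 genes measured, 121 were called higher (2.05%) and 85 lower (1.44%), and with TMM scaling these counts became 88 and 120. Of the 23 measured arterial-list genes, 13 were called higher and 0 lower, with a median log2 ratio of 1.35 and 1.44 beside -0.05 and 0.01 over all genes. With TMM scaling 13 were called also, and with the mean of per-cell CPM 12 were, without Dll4. After thinning to 1000 UMIs only 8 genes of the list were measured, with a median of 1.28 and 0.95. Of those 8, 3 were called higher: Ltbp4, Edn1 and Glul. Sox17 itself, which the rule used, was at 276 and 179.9 CPM in the Gja4- or Gja5-positive cells, against 275 and 227 CPM in the Sox17-only cells. Every Sox17-only cell holds a Sox17 UMI by definition, while a Gja4- or Gja5-positive cell need not, so these levels cannot be compared.

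Of the Sema3g UMIs in the selected cells, the Gja4- or Gja5-positive cells held 80 of 99 in library 1 and 95 of 110 in library 2. Its level was 479.8 and 228 CPM in the Gja4- or Gja5-positive cells, against 22.6 and 10.5 CPM in the Sox17-only cells, with log2 ratios of 4.41 (95% interval 3.67 to 5.21) and 4.45 (3.65 to 5.34). Sema3g was detected in 11 of 15 and 15 of 28 of these cells, against 6 of 80 and 8 of 149. Bmx had 132 and 134 CPM in the Gja4- or Gja5-positive cells, against 2.38 and 9.76 CPM in the Sox17-only cells; the Sox17-only value of library 1 rests on 2 UMIs, and the interval of its log2 ratio there was 3.77 to 8.92. Hey1 had 138 and 72.0 CPM in the Gja4- or Gja5-positive cells, against 21.4 and 8.37 CPM in the Sox17-only cells. Dll4 had 239.9 and 204 CPM in the Gja4- or Gja5-positive cells, against 94.1 and 57.2 CPM in the Sox17-only cells. In both libraries the 95% intervals of Sema3g, Bmx, Hey1 and Dll4 lay apart. Efnb2, the ephrin ligand that marks arteries from early development, had 599.8 and 398 CPM in the Gja4- or Gja5-positive cells, against 268 and 158 CPM in the Sox17-only cells, and Unc5b, a netrin receptor, had 132 and 74.4 CPM in the Gja4- or Gja5-positive cells, against 48.8 and 20.9 CPM in the Sox17-only cells. Edn1, the precursor of the vasoconstrictor endothelin, had 834 and 477 CPM in the Gja4- or Gja5-positive cells, against 79.8 and 149 CPM in the Sox17-only cells. Fbln5 and Ltbp4, both elastic-fibre genes, had log2 ratios of 3.98 and 3.88 and of 2.44 and 1.22. Stmn2, Mecom (a zinc-finger transcription factor), Glul (glutamine synthetase) and Cxcl12 (the chemokine that retains haematopoietic cells) completed the 13; Cxcl12 had 246 and 293 CPM in the Gja4- or Gja5-positive cells, against 72.7 and 41.8 CPM in the Sox17-only cells. Nrp1, a VEGF and semaphorin co-receptor, was not called, at 126 and 156 CPM in the Gja4- or Gja5-positive cells, against 143 and 149 CPM in the Sox17-only cells. Gkn3, a marker of brain arterioles in mouse, had 1 UMI in library 1 and 60 in library 2, of which 59 lay in 10 Gja4- or Gja5-positive cells; 1 cell held as many as all the others together.

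**Figure D3:**
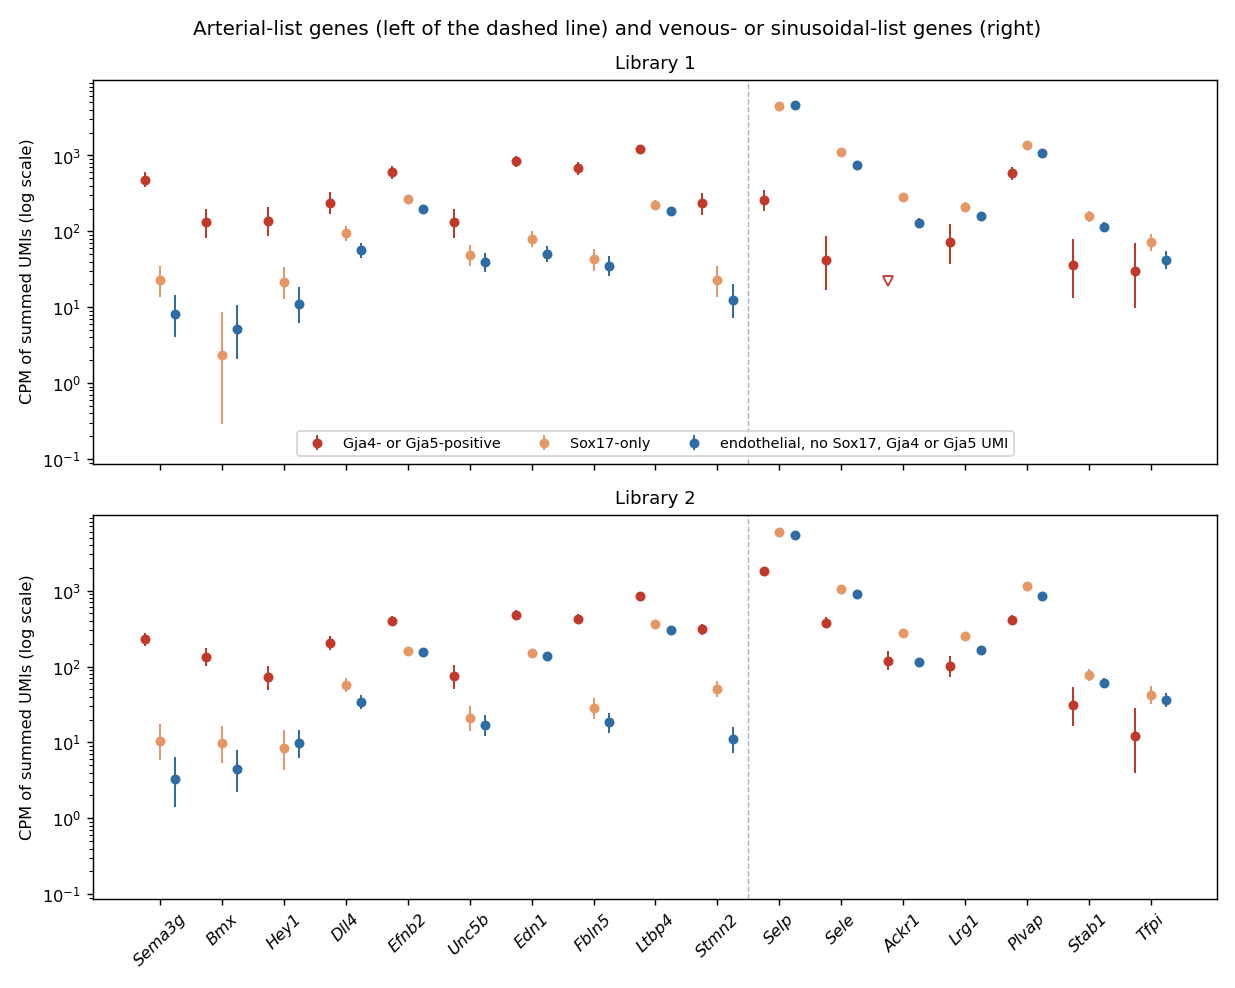
CPM of summed UMIs (log scale, vertical axis) for 10 arterial-list and 7 venous- or sinusoidal-list genes in Gja4- or Gja5-positive cells (red), Sox17-only cells (orange) and the other endothelial cells (blue), with exact Poisson 95% intervals; an open triangle is the upper limit of a gene with 0 UMIs. Sema3g stands at 479.8 and 228 CPM in red against 22.6 and 10.5 in orange, and Selp at 258 and 1789.8 in red against 4543 and 5859 in orange.

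Several venular genes ran the other way. Of 12 venous-list genes, 4 were called lower (Selp, Sele, Ackr1 and Lrg1) and 0 higher, and the list's median log2 ratio was -1.08 and -1.05. Selp, which encodes P-selectin, had 258 and 1789.8 CPM in the Gja4- or Gja5-positive cells, against 4543 and 5859 CPM in the Sox17-only cells, and the other endothelial cells had 4681 and 5449.9 CPM. It was present in 4 of 15 and 5 of 28 Gja4- or Gja5-positive cells, against 58 of 80 and 125 of 149 Sox17-only cells and 133 of 197 and 326 of 399 of the others. After thinning the shares were 6.67% and 14.3%, against 53.8% and 73.2%, while neutrophil barcodes gave 3.32% and 4.73%. Sele, which encodes E-selectin, had 42.0 and 379 CPM in the Gja4- or Gja5-positive cells, against 1121 and 1052 CPM in the Sox17-only cells. Ackr1 had 0 and 120.0 CPM in the Gja4- or Gja5-positive cells, against 281 and 278 CPM; 0 of 15 cells held it in library 1, where the interval reaches 22.1 CPM, and 2 of 28 in library 2. Lrg1, a secreted glycoprotein, had 72.0 and 101 CPM in the Gja4- or Gja5-positive cells, against 208 and 252 CPM in the Sox17-only cells, and neutrophil barcodes held it at 303 and 559.8 CPM. Vwf and Vcam1 were not called: Vwf had 216 and 189.5 CPM in the Gja4- or Gja5-positive cells, against 197 and 308 CPM in the Sox17-only cells, and Vcam1, an adhesion molecule for leukocytes, had 3623 and 1264 CPM in the Gja4- or Gja5-positive cells, against 1133 and 804 CPM in the Sox17-only cells. Nr2f2, the transcription factor of venous identity, had 48.0 and 36.0 CPM in the Gja4- or Gja5-positive cells, against 73.9 and 87.2 CPM in the Sox17-only cells, which was not called because library 1 stayed under 2-fold. Of 6 measured sinusoidal-list genes, 3 were called lower: Stab1, a scavenger receptor, Plvap, a protein of fenestral diaphragms, and Tfpi, an inhibitor of coagulation. Plvap had 582 and 410.3 CPM in the Gja4- or Gja5-positive cells, against 1369 and 1167 CPM in the Sox17-only cells. Emcn, a rule gene given here as a description, was at 348 and 696 CPM in the Gja4- or Gja5-positive cells, against 1007 and 1263 CPM in the Sox17-only cells.

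**Figure D4:**
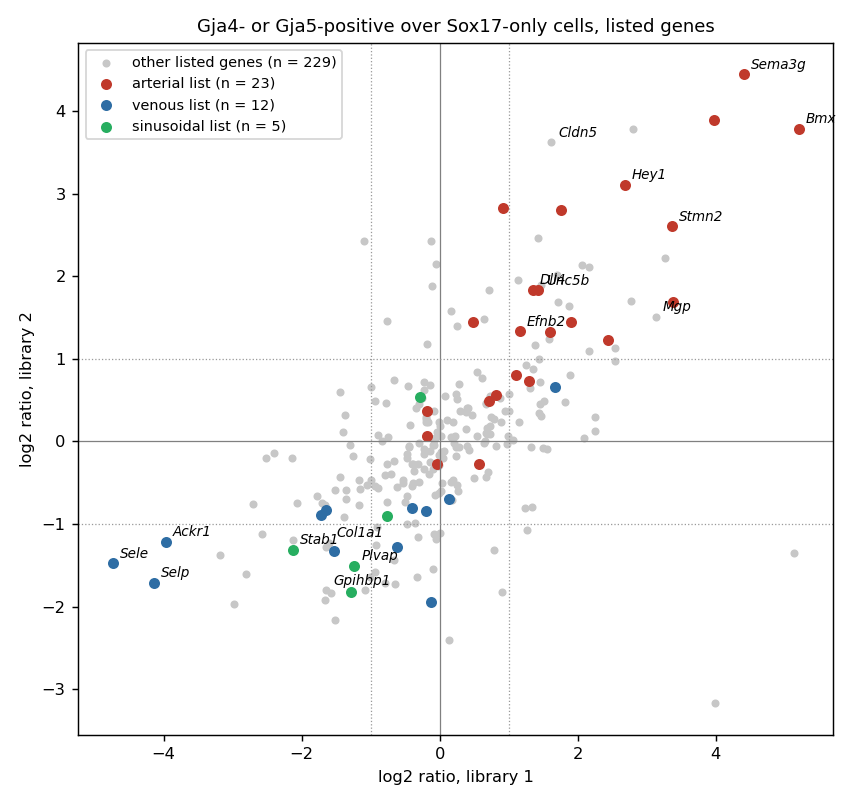
Log2 ratio of Gja4- or Gja5-positive over Sox17-only cells in library 1 (horizontal axis) and library 2 (vertical axis) for the measured genes of all lists; dotted lines mark 2-fold. Arterial-list genes (red) gather in the upper right, with 13 of 23 past both lines, and Selp, Sele and Ackr1 of the venous list (blue) lie in the lower left.

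Selp and 4 arterial-list genes were also counted cell by cell. A UMI of Sema3g, Bmx, Hey1 or Gkn3 was found in 15 of 15 and 19 of 28 of these cells, of which 4 and 2 also held Selp; in library 1 these are all the Selp-positive cells of the group. In the Sox17-only cells 18 of 80 and 18 of 149 held 1 of the 4 genes, of which 14 and 14 also held Selp, and in the other endothelial cells 25 of 197 and 28 of 399 did, of which 16 and 19 held Selp. Selp per 10000 UMIs had a lowest value of 0, a median of 0 and a highest of 38.9 in the Gja4- or Gja5-positive cells of library 1, and of 0, 0 and 162 in library 2. In the Sox17-only cells the lowest, median and highest values were 0, 8.15 and 324 in library 1 and 0, 38.2 and 268 in library 2. The ranges overlap, and the cells at 0 numbered 11 of 15 and 23 of 28, against 22 of 80 and 24 of 149. Sox17-only cells with any of the 4 genes had a median Selp of 4.49 and 7.11 per 10000 UMIs, against 13.5 and 42.6 without. Their median depth was 10867 and 8923 UMIs, against 6631 and 7926. In the other endothelial cells the median Selp was 1.74 and 12.8 with any of the 4 genes, against 12.8 and 44.9 without.

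**Figure D5:**
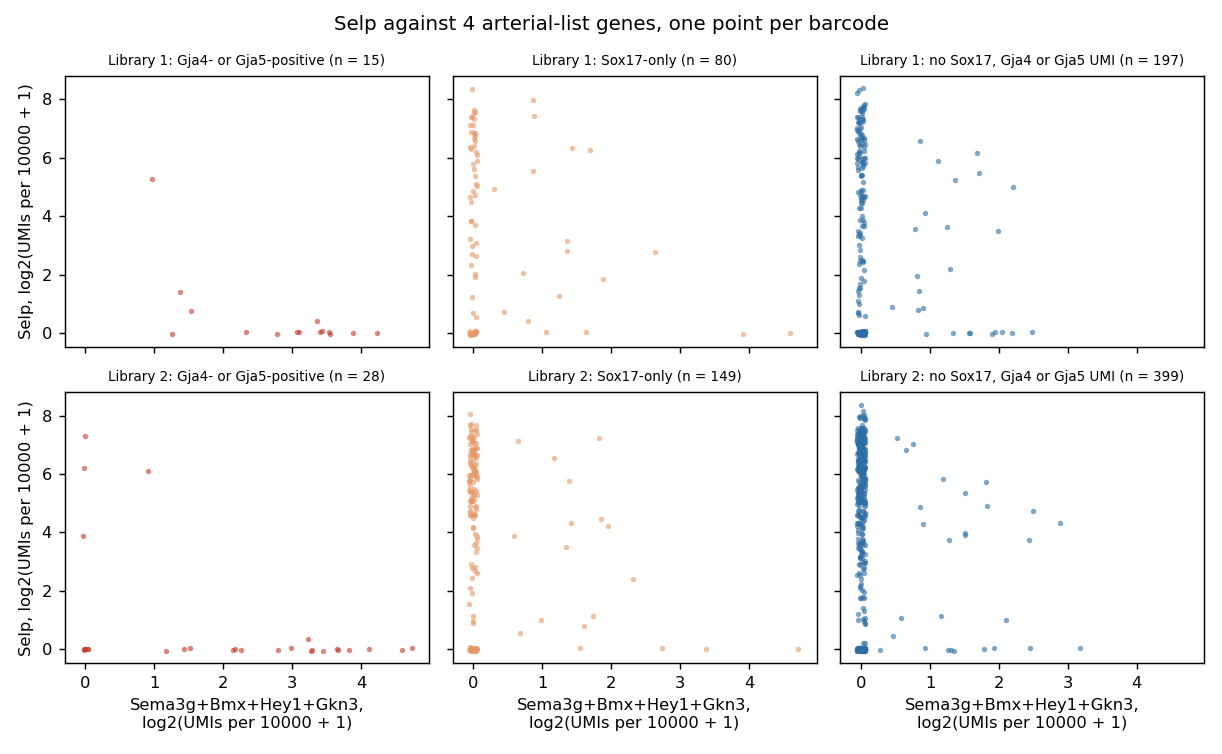
Selp (vertical axis) against the sum of Sema3g, Bmx, Hey1 and Gkn3 (horizontal axis), both as log2(UMIs per 10000 + 1), one point per barcode with a small random shift; rows are libraries, columns are Gja4- or Gja5-positive, Sox17-only and other endothelial cells. In the left column most points lie on or near the horizontal axis, with 11 of 15 and 23 of 28 at 0 for Selp, and in the other columns most lie along the vertical axis.

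Other lists held fewer calls between the Gja4- or Gja5-positive and the Sox17-only cells. Some of their genes are also on the arterial, venous or sinusoidal list and are counted again. In the Notch list 4 of 13 measured genes were called higher and 0 lower: Dll4, Hey1, Nrarp and Notch4, the endothelial Notch receptor, which had 138 and 57.6 CPM in the Gja4- or Gja5-positive cells, against 51.2 and 10.5 CPM in the Sox17-only cells. Cldn5 was the only call among 15 junction genes, at 779.7 and 893 CPM in the Gja4- or Gja5-positive cells, against 254 and 72.5 CPM in the Sox17-only cells. Of 22 matrix genes, 6 were called higher and 0 lower (Col18a1, Fn1, Mgp, Fbln2, Fbln5 and Ltbp4), and Mgp had 5848 and 3935 CPM in the Gja4- or Gja5-positive cells, against 666 and 1383 CPM in the Sox17-only cells. In the TGF-beta and BMP list 2 of 16 genes were called higher, Acvrl1, a type I BMP9 and BMP10 receptor, and Smad6, an inhibitor of the pathway; Acvrl1 had 252 and 199 CPM in the Gja4- or Gja5-positive cells, against 77.4 and 49.5 CPM in the Sox17-only cells. Of 20 shear-stress and mechanosensing genes, Nos3 (endothelial nitric oxide synthase) and the ion channel gene Trpv4 were called higher. Nos3 had 294 and 120.0 CPM in the Gja4- or Gja5-positive cells, against 108 and 60.0 CPM in the Sox17-only cells, a log2 ratio of 1.44 and 1.00, at the 2-fold mark in library 2, while Klf2 had 839.7 and 585 CPM in the Gja4- or Gja5-positive cells, against 477 and 609 CPM in the Sox17-only cells. The vasoactive list split, with Edn1, Nos3 and Ace (angiotensin-converting enzyme) called higher and Ptgs1 (a cyclooxygenase), Tfpi and F8 (coagulation factor VIII) lower, of 21. The leukocyte-adhesion list also split, with Icam2 and Podxl higher and Selp, Sele and Ackr1 lower, of 9. Among secreted factors, Cxcl12, Igfbp3 and Dkk2, a Wnt modulator, were called higher of 16, and Cx3cl1, a membrane-bound chemokine, was called higher and Cxcl10 lower of 7 chemokines. Dkk2 had 108 and 76.8 CPM in the Gja4- or Gja5-positive cells, against 15.5 and 5.58 CPM in the Sox17-only cells. In the interferon and MHC list Ly6a, known as Sca-1, was called higher, and the MHC class II genes H2-Aa, H2-Ab1 and Cd74 lower, of 19. Ly6a had 1619 and 1713 CPM in the Gja4- or Gja5-positive cells, against 537 and 727 CPM in the Sox17-only cells, and Cd74 had 36.0 and 154 CPM in the Gja4- or Gja5-positive cells, against 253 and 466 CPM in the Sox17-only cells; in library 1 a single Sox17-only barcode held 62% of the H2-Ab1 UMIs of the selected cells. Gpihbp1, the capillary anchor of lipoprotein lipase, had 60.0 and 4.80 CPM in the Gja4- or Gja5-positive cells, against 188 and 25.1 CPM in the Sox17-only cells (log2 intervals -2.74 to -0.73 and -5.49 to -0.43), and with Fabp5 made 2 lower calls of 7 in the capillary list. In the type H list Igfbp3 was called higher and Trp53i11 lower, of 9; Trp53i11 rested on 2 and 13 UMIs in the Gja4- or Gja5-positive cells, with log2 intervals of -6.83 to -1.89 and -2.33 to -0.54. No call was made among 17 endothelial transcription factors, 14 VEGF and angiopoietin genes, 16 stress genes or 10 cell-cycle genes.

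The 8 and 8 cells with Gja5 gave the same comparison in its planned form. Against the Sox17-only cells, 159 of 5568 genes were called higher (2.86%) and 109 lower (1.96%); with ratios centred on their median the counts were 125 and 133, and with TMM scaling 92 and 195. Of 22 measured arterial-list genes 14 were called higher and 0 lower, and of 11 venous-list genes 6 were lower and 1, Vcam1, higher.

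The Sox17-only cells were also set against the other endothelial cells. Of 8497 genes measured, 24 were called higher (0.282%) and 365 lower (4.3%). Of 22 arterial-list genes only Sema3g was called higher, at 22.6 and 10.5 CPM in the Sox17-only cells, against 8.11 and 3.26 CPM in the other endothelial cells. The median log2 ratio of the arterial list was 0.43 and 0.20, beside -0.11 and -0.14 over all genes. Lists that are not arterial had similar medians. They were 0.50 and 0.31 for the venous list, 0.48 and 0.34 for endothelial transcription factors and 0.29 and 0.29 for the 14 endothelial markers outside the rule. This comparison was not repeated under other settings. Ackr1 (1 of 12 venous genes), Gpihbp1 and Fabp4 (2 of 7 capillary genes), Sox18, Nrarp and Id3 were called higher as well. Ackr1 had 281 and 278 CPM in the Sox17-only cells, against 129.7 and 115 CPM in the other endothelial cells.

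Markers of other cells moved with some of these values. The pericyte and smooth-muscle list stood at 383 and 472 CPM in the selected cells (8 of 10 and 10 of 10 markers detected, Des and Cnn1 at 0 in library 1), against 142 and 87.9 CPM in the other endothelial cells (7 of 10 and 10 of 10). Acta2 and Rgs5 of that list were called higher, but 1 barcode in each library held 60.5% and 69.4% of the Rgs5 UMIs of the selected cells. Within the selected cells the list stood at 1709 and 113 CPM in the Gja4- or Gja5-positive cells and 119 and 576 CPM in the Sox17-only cells, opposite orders in the 2 libraries. Mural barcodes (at least 5 UMIs of Acta2, Myh11, Rgs5 and Notch3, no Cdh5, not neutrophil barcodes) also held Gja4. In library 1 it stood there at 114 CPM (50 UMIs), with Sox17 and Gja5 at 0. In library 2 Gja4 and Gja5 together stood at 94.1 CPM, with Sox17 at 0. How much Gja4 in the selected cells came from mural cells was not tested. The neutrophil list stood at 3491 and 16524 CPM, against 3157 and 5059 CPM, with all 8 markers detected in both. In library 2 that list exceeded 5% of the UMIs in 2 of 28 and 2 of 149 barcodes, with highest shares of 29.0% and 16.4% and medians per cell of 0.251% and 0.204%. The fibroblast and bone-forming list stood at 2105 and 1072 CPM (9 of 10 markers in each library), against 6205 and 1913 CPM (10 of 10). Col1a1 of that list was called lower, at 654 and 283 CPM in the Gja4- or Gja5-positive cells, against 1989.5 and 664 CPM in the Sox17-only cells, yet without barcodes in which markers of other lineages exceeded 5% of the UMIs its log2 ratio was 0.15 and 0.09, and without the 5% highest doublet scores it was 0.29 in library 1. The part of these cells in the results was not tested, other than by leaving out the barcodes with Ptprc, with many markers of other lineages or with the highest doublet scores. Without the highest doublet scores, 40 of the 54 higher and 251 of the 332 lower calls of the selected cells remained, and within the selected cells 93 of 121 and 61 of 85.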

How the data were processed

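The 2 libraries of alveolar bone cells were deposited by the authors as unfiltered matrices of UMI counts per gene and barcode. Of 99819 features, the 57126 with a mouse Ensembl gene identifier, called named genes here, were used. FastQC 0.11.9 and the builds GRCh38 and mm10 are listed, per the submitters' processing notes, without a role; an aligner, the counting settings and the use of strand were not given in the sources used here. Bone was digested for 60 min with a GEXSCOPE solution, per the labels' protocols. Counts were summed per library and cell group and divided by the group's total (CPM). A gene is measured with at least 20 UMIs over both groups in each library and called when at least 2-fold in the same direction in both. A group with under 3 UMIs was set to 3; no ratio was taken where both groups were below that or where the bound changed the direction. The 9 genes of the selection rule were never counted. Intervals are exact (95%), and cover counting error only: Poisson for CPM, Clopper-Pearson for shares and conditional binomial for ratios. The 2-fold rule for genes, not the selection of cells, was run on simulated Poisson counts made from these libraries. The planted changes were larger than 2-fold and UMIs did not gather in single barcodes, so calls near the mark were not tested.

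The cells and the 20 functional and 11 marker lists were chosen with earlier results of these data known; Slc9a3r2 had no match. Named genes are those of the rule, up to 6 called genes and 2 uncalled of a list, and the 12 leading genes outside the lists in each direction; others, among them those of the comparison within the selected cells, were picked after their values were seen. The planned comparison with Stab2-positive endothelial cells could not be made, with 1 such barcode in library 1 and 0 in library 2, so the naming rule was applied to endothelial cells without an arterial UMI. Neutrophil barcodes held at least 5 UMIs of Ly6g, Retnlg, Ngp and Csf3r and no Cdh5; since that group also held fibroblast markers, the shares are of barcodes with over 10% of UMIs in 8 neutrophil markers, a limit added later. Doublets were scored with Scrublet in scanpy 1.11.5 and kept in the counts: the caller marked 96 of 9365 and 185 of 12444 barcodes. Python 3.11.15, numpy 2.4.6, scipy 1.17.1 and edgeR 4.0.16 (TMM factors) were used. Alternatives were the doublet scores, thresholds, scaling, weighting of cells, count filters, thinning, and leaving out barcodes or a library.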

Additional observations from a re-analysis of the deposited data

Results flagged for a closer look

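Features without a mouse Ensembl gene identifier took 0.602% of all UMIs in library 1 and 0.431% in library 2. They number 42693 of the 99819 features and enter none of the comparisons; the values are above what a count of 0 would allow.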

How the results depend on the processing

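For the selected over the other endothelial cells (54 genes higher, 332 lower), the counts were 131 higher with 1 UMI as the minimum, 27 higher and 150 lower with 50, 2 and 26 after thinning to 1000 UMIs, and 24 and 9 without barcodes with a Ptprc UMI, a setting chosen after the data were seen. For the Gja4- or Gja5-positive over the Sox17-only cells (121 and 85) they were 507 higher with 1 UMI as the minimum, 54 higher with 50, 19 and 18 after thinning, and 131 lower with the mean of per-cell CPM. For the Gja5-positive over the Sox17-only cells (159 and 109) they were 92 and 195 with TMM, 785 higher with 1 UMI, 72 higher with 50, and 23 and 8 after thinning. Leaving out a library, which removes the demand that both show the change, gave 256 to 257 higher and 896 to 986 lower in the first comparison, 497 to 511 and 481 to 526 in the second, and 642 to 794 and 390 in the third. Thinning also leaves fewer genes measured, 2711, 864 and 801. Why the counts changed was not tested for thinning or for any other setting. At least 2 arterial UMIs left 63 and 95 selected cells, and thinning before the selection left 23 and 26. Of 48 named genes with a call, 48 stayed past 2-fold with TMM or centred ratios. With the mean of per-cell CPM 32 did, and 44 without barcodes rich in markers of other lineages. Of those measured, 41 of 44 did without the highest doublet scores, 16 of 30 without Ptprc barcodes and 3 of 12 after thinning. With the mean of per-cell CPM, 22 of the 54 higher and 167 of the 332 lower calls of the first comparison remained, and Hey1 and Dll4 lost theirs. For Top2a, called lower, the log2 ratio in the library with the higher ratio was 0.047 after thinning and 1.06 without Ptprc barcodes, a change of sign there. The comparison with Stab2-positive cells gave no value. No paired analysis was possible because neither library has a group in the labels. The 15 and 28 Gja4- or Gja5-positive cells, with 166734 and 416800 UMIs, set the precision of the second comparison. The 8 and 8 Gja5-positive cells, with 83049 and 128290 UMIs, set that of the third.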
